A study of Rattus norvegicus with 4 samples.

Results

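The genes described here were higher after the lowest of 3 doses of hydrogen peroxide (H2O2) and had come back down, in part or in full, at the highest. They were chosen by measured values. A rat gene named through RefSeq, seen well above background on each of the 4 arrays, was taken when its log2 level at 0.003% H2O2 was at least 1 above the control and its level at 0.009% was at least 1 below that at 0.003%, that is, 2-fold each way. Of 4988 genes seen on all arrays, out of 8963 named on the array, 163 met both limits. Solute carriers, collagens, integrins and cytochromes P450 were left aside with 8 single genes, which left 152 members. Both limits use the 0.003% array, so the difference from the control and the drop are descriptions here and were not tested. The 0.006% array entered only through the requirement to be seen.

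The cells were NRK-52E, an established epithelial line from rat kidney, in a study of signals by which dying cells make their neighbours divide. Confluent cultures took 0, 0.003, 0.006 or 0.009% H2O2 in medium for 1 h, were washed, and stayed in serum-free medium for 12 h. There was 1 culture and 1 array per dose and none was repeated, so no difference has a replicate check and no p-value is given. All 4 groups shared confluence and the removal of serum, and the control differed only in having no peroxide. Levels are log2 spot signals relative to the 75th percentile of the same array, which was 180, 168, 158 and 121 signal units from the control to the highest dose. The error given with a difference comes from the reading of the spots by the scanner's software and says nothing of the spread between cultures. The arrays lay side by side on 1 slide in the order of the doses, so place on the slide and dose cannot be told apart. With bulk RNA, fewer cells of a type and less RNA per cell cannot be told apart either. Of 17 kidney epithelial markers on the array, 9 or 10 were well above background at each dose, with Krt8, an epithelial keratin, far the brightest. Epcam, Pax8 and Slc34a1 were below background on every array, and Cdh1 was above it on 2. As multiples of each array's 75th percentile, the summed signal of the epithelial markers, most of it Krt8, was 65.0, 59.3, 48.1 and 42.5 from no peroxide upward. That of 9 fibroblast and mesenchymal markers, most of it S100a4, was 313, 228, 255 and 339, and that of 8 macrophage and leukocyte markers, most of it Cd14, 42.3, 27.4, 22.8 and 23.8. That of 5 endothelial markers stayed under 1, with Pecam1, Flt1 and Emcn below background throughout. The part of any of these in the results was not tested.

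H2O2 is a diffusible oxidant that oxidises cysteines, damages DNA and drains energy and reducing power. Cells meet a dose they can survive with repair, synthesis of protective proteins and adjustment of growth. Making ribosomes, the costliest of a growing cell's activities, starts in the nucleolus with RNA polymerase I and is tied to growth signals. AMP-activated protein kinase (AMPK) senses a low energy charge and restrains mTOR, the kinase that drives growth.

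The label under which these genes were gathered, raised at low dose only, held for fewer than all of them. The median difference from the control was 1.58 at 0.003%, 1.07 at 0.006% and 0.35 at 0.009%. At 0.006%, 88 of the 152 members were still at least 1 above the control, against 12.4% of all genes. The share was 79.1% in 561 other genes at least 1 above the control at 0.003% that missed the drop limit. At 0.009%, 23 members were at least 1 above the control, against 9.54% of all genes and 53.5% of those 561. The rule's first limit uses the same control array and favours low control levels. Nothing is therefore read from the distance of these counts to the 12.4% and 9.54% of all genes. By these counts the members fall into 64 genes at least 1 above the control at the lowest dose alone, 65 at the 2 lower doses, and 23 at all 3. No member was at least 1 below the control at 0.009%, against 5.43% of all genes, and none of the 561 was either. The rule starts every member at least 1 above the control at 0.003%, so nothing is read from that absence. At 0.009%, 119 members were above the control and 33 below it. In 150 of 152 the level was higher at 0.003% than at 0.006%, the exceptions being Ung and Sptlc2, a count that the rule favours because it picks high 0.003% levels.

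**Figure D1:**
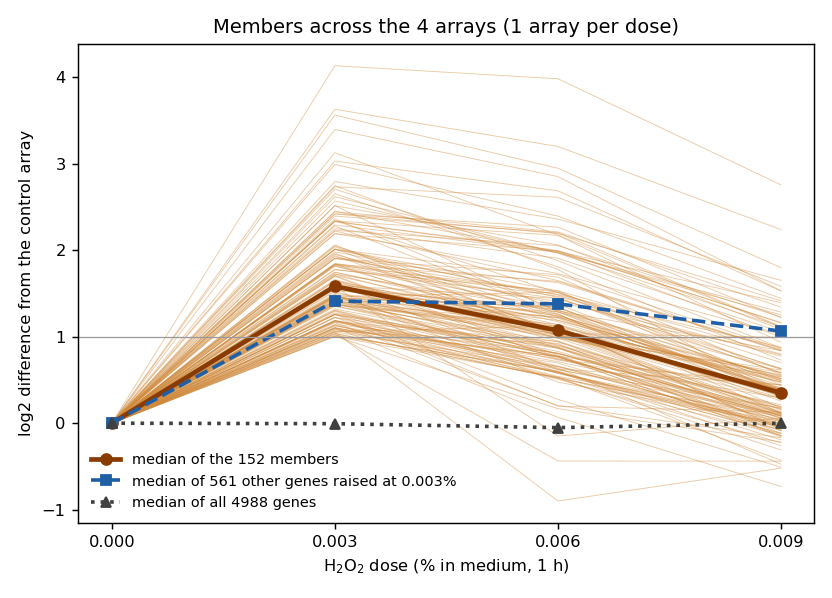
Log2 difference from the control array (vertical axis) against H2O2 dose in % (horizontal axis), a thin line for each of the 152 members and thick lines for medians, with 1 array per dose and no error bars. The members' median goes from 1.58 to 1.07 to 0.35, while that of 561 other genes raised at 0.003% goes from 1.41 to 1.38 to 1.07, and that of all 4988 genes stays near 0.

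The size of the response at 0.009% depended on how the arrays were put on one scale. Scaling to the array median moved the median of all 4988 genes by -0.15, -0.31 and -0.56 at the 3 doses, scaling to the spike-in probes by -0.17, -0.54 and -1.19, and quantile normalization by -0.10 at 0.009%. Values in the text are relative to the 75th percentile, so a difference at 0.009% below 0.56 or 1.19 turns negative with the first or the second. The tally of members below the control at 0.009% then turns, from 33 to 107 with array median scaling and 137 with spike-in scaling, and 5 and 63 are at least 1 below it. The members' median at 0.009% was then -0.21 and -0.84. With quantile normalization it was 0.24, with 49 members below the control and 2 at least 1 below it, and with normexp, another background correction, 0.30, with 21 below it. Normexp acted most on dim genes at the lowest dose: 92 of the 152 members were then at least 1 above the control at 0.003%, and in 60 the difference was smaller by over 1.5-fold. The drop shrank too: 60 of the 152 members kept a drop of at least 1 with normexp, and the members' median drop went from -1.249 to -0.915. A normexp difference past 1 at 0.003%, as given below for single genes, therefore does not mean that both limits were still met. Members at least 1 above the control at 0.009% numbered 5 with array median scaling, 2 with spike-in scaling, 20 with quantile normalization and 6 with normexp.

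**Figure D2:**
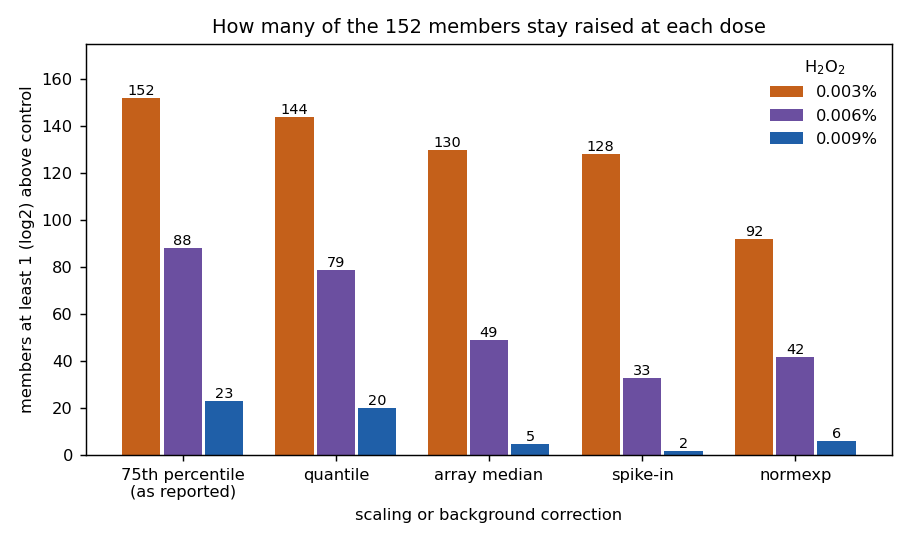
Number of the 152 members at least 1 (log2) above the control (vertical axis, from 0) at each dose under 5 ways of scaling or background correction (horizontal axis). In every one the count goes down from dose to dose, from 152, 88 and 23 as reported to 128, 33 and 2 with spike-in scaling. The rule chose the members for such a fall on these same arrays, so nothing is read from its recurrence.

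The level at the middle dose was not itself used to choose members. The 0.006% level lay between those at 0.003% and 0.009% in 148 of 152 members, against 72.6% of all genes, but the rule sets those 2 levels at least 1 apart in every member, so nothing is read from the difference in share. By 0.006% a median of 39.0% of the whole drop had taken place, so 118 members lost more between 0.006% and 0.009% than between 0.003% and 0.006%. Of the members, 9 were at least 1 below their 0.003% level at 0.006%, against 0.501% of all genes, and here too the rule's choice of high 0.003% levels favours the count. Furthest were Clic4, an intracellular chloride channel protein that responds to redox, Ap5m1, an adaptor protein subunit, and the Fc receptor gene Fcgr2a. Clic4 had a level of -2.48 on the control and differed from it by 1.06 at 0.003%, -0.90 at 0.006% and -0.52 at 0.009%. It was above the control at the lowest dose alone and below it at both others. Ap5m1 had levels of -3.27, -1.68, -3.41 and -3.21 in order of dose, and Fcgr2a of -2.87, -1.84, -3.30 and -3.31. All 3 were dim, Ap5m1 and Fcgr2a being among the 3 dimmest members, and they stood out on the 0.003% array only. With normexp that difference was 0.54 for Clic4, 0.57 for Ap5m1 and 0.38 for Fcgr2a, all short of the limit. At the other end, Ung, the uracil glycosylase of base excision repair, had levels of 0.16, 1.22, 1.29 and 0.09. Sptlc2, a subunit of the enzyme that starts sphingolipid synthesis, had levels of -0.48, 0.98, 1.03 and -0.09. Both were raised alike at the 2 lower doses and near the control at the highest. With normexp the difference at 0.003% was 0.855 for Ung and 1.20 for Sptlc2.

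Genes raised at 0.003% without the drop give the comparison. In 561 genes at least 1 above the control at 0.003% that missed the drop limit, the 0.006% level was below the 0.003% level in 58.6%, against 98.7% of members. Their median difference at 0.006% minus 0.003% was -0.06 and that of members -0.49. Of all genes, 14.5% were at least 1 above the control at 0.003%, 12.0% were at least 1 below it, 5.69% had a drop of at least 1 from 0.003% to 0.009%, 5.91% had a gain of at least 1, and 3.27% met both limits of the rule. Among the 724 genes at least 1 above the control at 0.003%, 22.5% also met the drop limit. These shares describe the rule and support nothing further. Members were dimmer than the comparison genes, with a median control signal of 95.2 units against 327, and a median of 445 for all genes. At 0.009% the median signal, before scaling, was 81.8 units in members and 289 in all genes, each below its control median.

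**Figure D3:**
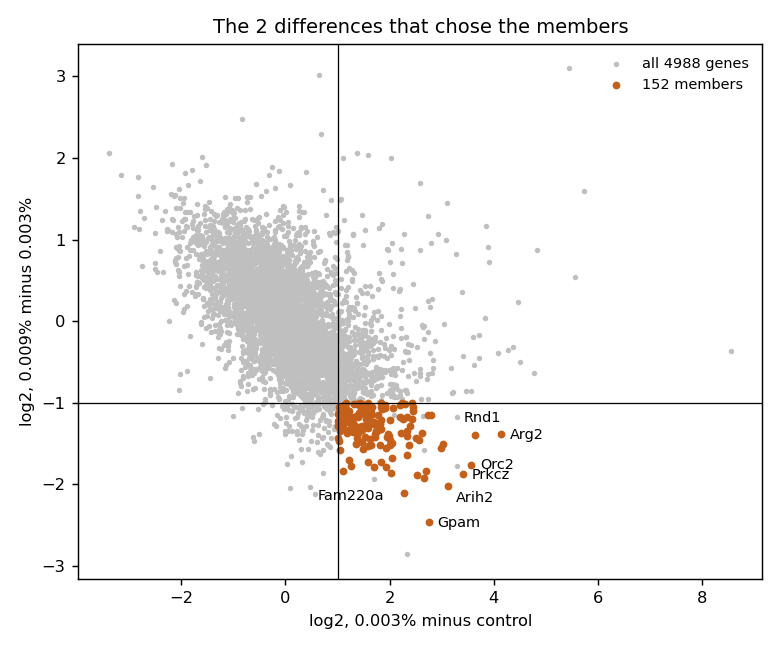
The difference 0.009% minus 0.003% (vertical axis, log2) against 0.003% minus control (horizontal axis, log2) for all 4988 genes in grey and the 152 members in orange, with lines at the limits of 1 and -1. Members fill the lower right corner, from genes at the edge of both limits to Gpam at 2.75 and -2.45.

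The largest differences at 0.003% were in enzymes and signalling proteins of diverse kinds. Arg2, the mitochondrial arginase that turns arginine into ornithine and urea, had levels of -3.69 on the control, 0.45 at 0.003%, 0.30 at 0.006% and -0.93 at 0.009%. It was 17.6-fold (log2 4.14 ± 0.32), 15.8-fold and 6.76-fold above the control, the largest of the members at every dose. Rnd1, a GTPase that loosens actin stress fibres and rounds cells, had levels of 2.22, 5.86, 5.43 and 4.46, which is 12.4-fold, 9.20-fold and 4.72-fold above the control. Arg2 and Rnd1 stayed far above the control throughout, with drops of -1.38 and -1.39. Akr1b8, an aldo-keto reductase that clears reactive aldehydes, had levels of 3.79, 6.82, 6.48 and 5.32. It was 8.18-fold above the control at 0.003% and 2.89-fold at 0.009%. Arih2, an ubiquitin ligase of the RBR type that works with cullins, was 8.75-fold, 4.52-fold and 2.16-fold above the control by its brightest probe. In log2 its difference at 0.003% was 3.13 by that probe and 1.67 by a second one, with drops of -2.02 and -1.08. Oga, which removes O-GlcNAc from proteins, was 6.95-fold, 5.14-fold and 3.14-fold above the control. At 0.009%, Arih2 lay at -0.08 relative to the control with spike-in scaling. The size of these differences depended on the background correction where the control signal was dim. With normexp the difference at 0.003% was 2.03 for Arg2, 2.55 for Arih2 and 2.29 for Oga, and it was 3.50 for Rnd1 and 2.93 for Akr1b8, which were bright.

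Other members ended close to the control or below it. Gpam, the mitochondrial acyltransferase that begins glycerolipid synthesis, had the largest drop, -2.45 ± 0.24, with levels of -2.52, 0.23, -0.74 and -2.22. Fam220a had levels of -0.77, 1.51, 0.49 and -0.60, a drop of -2.10 ± 0.21. The gene for Nbr1, an autophagy receptor, went from -1.07 to 0.87, -0.04 and -0.91. With normexp the first difference was 1.60 for Gpam. Panx1, a channel that releases ATP, and Aspg, an asparaginase, ended furthest below it with Clic4, at -0.51, -0.73 and -0.52. Panx1 had levels of -1.29, -0.03, -1.01 and -1.80, and Aspg of -1.72, -0.61, -1.65 and -2.45. Ankrd13a, which binds ubiquitin chains on receptors, followed at -0.47. With normexp the difference at 0.003% was 0.79 for Panx1, 0.68 for Aspg and 1.02 for Ankrd13a.

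Leaving aside the 5 lists formed after the members were seen, ribosome biogenesis was the list with the most members. Of 34 measured genes of rRNA synthesis, processing and assembly, 8 (23.5%) were members, against 3.05% of all genes measured. With the other scalings that count was 19 (array median), 28 (spike-in) and 4 (quantile). The list as a whole was high: 31 of 34 were at least 1 above the control at 0.003%, 30 at 0.006% and 14 at 0.009%, with none at least 1 below, and medians of 1.56, 1.43 and 0.92 against -0.01, -0.05 and -0.00 for all genes. Its drop limit was met by 9, the ninth being Polr1c, a subunit that RNA polymerases I and III share, which was at 0.65 at 0.003% and -0.42 at 0.009%. The members thus sit at one end of a list most of whose genes were raised. Of all 724 genes at least 1 above the control at 0.003%, 22.5% met the drop limit, and of the 31 such genes of the list, 8 did. The number of members in the list is therefore not read as particular to it. The median of the list's drop was -0.63.

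Among these members, Polr1b, the second largest subunit of RNA polymerase I, had levels of -1.19, 1.54, 1.42 and 0.39, and differences of 2.74 ± 0.21, 2.61 and 1.58 ± 0.21. The largest subunit, Polr1a, had levels of 0.25, 1.68, 1.47 and 0.68. Its differences were 1.44, 1.22 and 0.43, smaller than those of Polr1b at each dose. Bysl, needed for the small subunit, had levels of 1.36, 3.59, 3.41 and 2.58. Wdr12 and Bop1, partners in the PeBoW complex that matures the large subunit, differed from the control by 2.19, 1.99 and 1.16, and by 1.41, 1.14 and 0.26. Their partner in it, Pes1, missed the drop limit at 1.21, 1.12 and 0.72. Mybbp1a, a nucleolar protein that binds Myb, was at 1.78, 1.44 and 0.63, Grwd1, a histone-binding nucleolar protein, at 1.73, 1.31 and 0.34, and Pno1, a factor of the small subunit, at 1.40, 1.00 and 0.39. In contrast, the box C/D proteins Nop56 and Nop58 were at 2.32, 2.42 and 2.12, and at 2.36, 2.44 and 1.98, and the nucleolar GTPase Gnl3 was at 2.22, 2.36 and 2.14. All 34 measured genes but Polr1c were above the control at each dose, but with spike-in scaling those under 1.19 at 0.009% lie below it, Wdr12 among them at -0.03. Outside the list, and picked after the members were seen, Taf1a, a subunit of the factor that brings RNA polymerase I to its promoter, was at 2.01, 1.69 and 0.56, Sdad1 at 1.85, 1.47 and 0.77, and Wdr46 at 1.18, 0.94 and 0.08. With normexp Taf1a was at 0.62 and Wdr46 at 0.84 at 0.003%. Brf2, a factor of RNA polymerase III, was at 1.09, 0.51 and -0.23, or 0.69 at 0.003% with normexp.

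**Figure D4:**
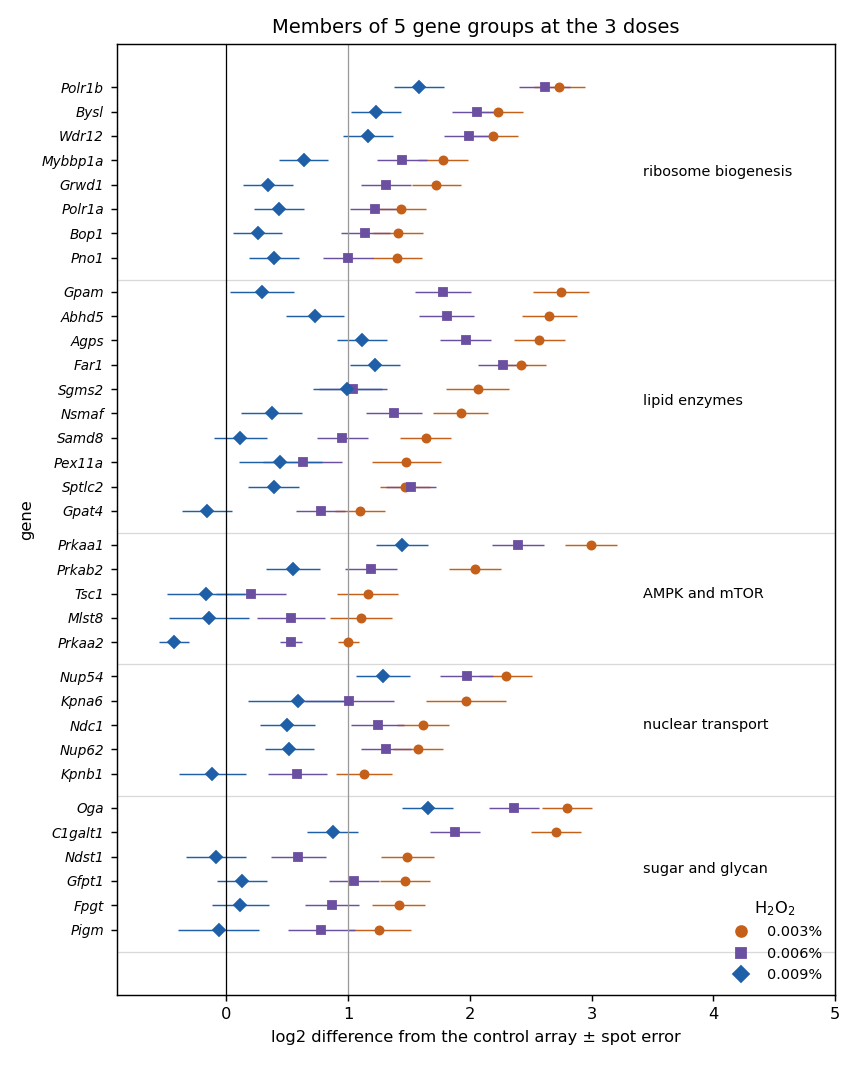
Log2 difference from the control (horizontal axis) of the members of 5 gene groups (vertical axis), with circles for 0.003%, squares for 0.006% and diamonds for 0.009% H2O2 and bars for the spot error. In every gene shown but Sptlc2, whose 0.006% value lies above that at 0.003%, the values come down from dose to dose, and in Sgms2, Pex11a, Prkab2, Tsc1, Kpna6 and Ndst1 most of the drop lies before 0.006%.

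Promoters were looked at for what the rule had not used. The RefSeq table on the GRCr8 assembly held 126 of the 152 members, each as 250 bases before and 50 after the start of the gene. The letters CACGTG, the E-box that Myc-Max dimers and related factors bind, stood in 14.3% of the members' promoters, 9.83% of those of all genes measured, 13.8% of 471 promoters of the other raised genes, and 6.65% of all promoters in the table. They stood in 12 of 29 promoters of measured ribosome biogenesis genes (41.4%) and in 3 of the 7 members among these. Those 3 are printed because the list and the letters meet in them, 5′ to 3′ on the gene's strand, with CACGTG in capitals. Bysl lies on the plus strand at chr9:20880091-20880390, Mybbp1a on the plus strand at chr10:57555208-57555507, and Pno1 on the minus strand at chr14:95819854-95820153.
Bysl: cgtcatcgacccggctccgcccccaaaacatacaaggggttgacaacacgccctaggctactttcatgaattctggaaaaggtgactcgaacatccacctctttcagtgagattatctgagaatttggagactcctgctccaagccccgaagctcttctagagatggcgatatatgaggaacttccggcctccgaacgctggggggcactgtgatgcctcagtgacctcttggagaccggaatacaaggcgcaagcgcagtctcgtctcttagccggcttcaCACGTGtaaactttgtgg
Mybbp1a: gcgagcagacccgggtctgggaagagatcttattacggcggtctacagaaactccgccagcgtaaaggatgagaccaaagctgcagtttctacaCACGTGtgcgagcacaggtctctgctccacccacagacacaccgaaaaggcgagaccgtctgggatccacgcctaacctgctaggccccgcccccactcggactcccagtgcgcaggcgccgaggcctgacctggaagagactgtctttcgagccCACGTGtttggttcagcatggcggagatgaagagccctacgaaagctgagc
Pno1: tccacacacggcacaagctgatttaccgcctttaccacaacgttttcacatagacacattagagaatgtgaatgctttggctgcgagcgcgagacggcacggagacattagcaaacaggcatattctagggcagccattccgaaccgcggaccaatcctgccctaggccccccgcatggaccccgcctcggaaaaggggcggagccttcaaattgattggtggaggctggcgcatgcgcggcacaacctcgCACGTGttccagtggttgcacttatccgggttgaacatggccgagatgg
Counted from the start site, the match begins at position 33 in Bysl, at -156 and -1 in Mybbp1a, and at 2 in Pno1. Max, which forms the dimer, was itself a member, with levels of -1.95, -0.25, -1.21 and -1.51, and its promoter also held the letters. With normexp Max was 0.94 above the control at 0.003%. A match is a string of letters and not a binding site.

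The letters TATAAA were rare among the members. They stood, on either strand, in 1 of 126 promoters (0.79%), against 7.78% for all genes measured and 11.7% for the other raised genes. The CRE letters TGACGTCA stood in 2.38%, 3.32% and 6.79% of the same sets, the AP-1 letters TGANTCA in 4.76%, 5.49% and 6.16%, and the antioxidant response element letters TGACNNNGC in 17.5%, 15.5% and 19.1%. For the letters of NF-kB (GGANTTTCC), the shares were 1.59%, 1.51% and 1.70%, for those of the C/EBP-ATF element (TGATGNAAT) 0.79%, 0.63% and 0.64%, for those of the heat shock element (GAANNTTC) 7.14%, 5.44% and 6.16%, and for CCAAT 35.7%, 39.5% and 39.5%. Each was searched on both strands. The AP-1, CRE and antioxidant response element letters all begin with TGA, and their matches can overlap. The median GC content was 62.5% in members, 60.7% in all genes measured and 61.0% in the other raised genes. The promoter with TATAAA belonged to Gsta1, a glutathione transferase of the NRF2 response, whose levels were 1.85, 3.76, 3.57 and 2.71. It is shown for that reason, from the minus strand at chr9:31216483-31216782, with capitals for the TATA letters (here on the other strand, from position -176), the heat shock element letters (from -98) and the antioxidant response element letters (from 31).
Gsta1: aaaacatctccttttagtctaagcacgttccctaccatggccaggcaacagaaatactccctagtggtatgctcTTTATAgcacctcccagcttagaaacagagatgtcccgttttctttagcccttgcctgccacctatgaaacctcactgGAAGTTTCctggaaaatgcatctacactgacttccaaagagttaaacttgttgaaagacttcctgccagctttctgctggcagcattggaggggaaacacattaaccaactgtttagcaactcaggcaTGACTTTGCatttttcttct

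Subunits of AMPK and of the mTOR pathway formed a group that was put together after the members were seen. Of 11 measured genes, 5 were members, against 3.05% of all genes measured. A group put together this way favours its count, so nothing is read from it here or in the other groups so formed. The catalytic subunits of AMPK were both members. Prkaa1, the alpha-1 subunit, had levels of -1.48, 1.52, 0.92 and -0.04, and was 7.97-fold, 5.26-fold and 2.72-fold above the control. Prkaa2, the alpha-2 subunit, had levels of -2.78, -1.78, -2.26 and -3.21, just past the first limit at 1.00 ± 0.08. It was below the control at the highest dose. With normexp the first difference was 2.07 for Prkaa1 and 0.39 for Prkaa2. Prkab2, a beta scaffold subunit, was at 2.04, 1.19 and 0.55, and its homologue Prkab1 at 0.52, 0.10 and -0.14. The gamma subunits, which bind AMP, took other courses, Prkag1 with -0.76, -0.88 and -0.73 and Prkag2 with -0.79, -0.39 and 0.43. On the mTOR side, Mlst8, a subunit of both mTOR complexes, was at 1.11, 0.53 and -0.14, and Tsc1, an inhibitor of mTOR complex 1, at 1.16, 0.20 and -0.17. With normexp the difference at 0.003% was 1.40 for Prkab2, 0.45 for Mlst8 and 0.46 for Tsc1. Mtor itself was at -1.17, -1.48 and -1.74, and Tsc2, the partner of Tsc1, at -0.93, -1.03 and -1.09.

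Of 4 measured protein kinase C isoforms, a group also formed after the members were seen, 2 were members, against 3.05% of all genes measured. Prkce, the epsilon isoform, had levels of -3.33, -0.81, -2.05 and -2.70. It was 5.73-fold above the control at 0.003%, and 65.3% of its drop lay before 0.006%. With normexp its difference at 0.003% was 1.05. Prkcz, the atypical isoform zeta that acts in cell polarity, had levels of -0.73, 2.67, 2.13 and 0.80 by its brightest probe. That was 10.5-fold above the control at 0.003%, but a second probe for the same gene was at -0.52, -0.04 and -0.26 at the 3 doses. Prkcd, which was no member, was at 0.37, 0.14 and -0.05. The remaining isoform, also no member, was at least 1 above the control at 0.009% but not at 0.003% or 0.006%. At each dose 2 of the 4 isoforms were at least 1 above the control, with group medians of 1.45, 1.06 and 0.95.

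Genes of glycerolipid, ether lipid and sphingolipid metabolism gave 10 members of 26 measured, against 3.05% of all genes. This was again a group formed after the members were seen. Agps and Far1, which carry out steps of ether lipid synthesis in peroxisomes, had differences of 2.57, 1.97 and 1.11, and of 2.42, 2.27 and 1.22. At 0.009% Agps was at -0.08 with spike-in scaling. Abhd5, the activator of the triglyceride lipase ATGL, was at 2.65, 1.81 and 0.73, or 1.63 at 0.003% with normexp, and Gpat4, an acyltransferase of the endoplasmic reticulum, at 1.10, 0.77 and -0.16. In the sphingolipid branch, Sgms2, a sphingomyelin synthase, was at 2.06, 1.04 and 0.99, Samd8, its relative, at 1.64, 0.95 and 0.12, and Nsmaf, an adaptor of neutral sphingomyelinase, at 1.93, 1.38 and 0.37. Sgms2 was almost down to its 0.009% level at 0.006% already, which Sptlc2 was not. Pex11a, which helps peroxisomes divide, was at 1.48, 0.63 and 0.44. With normexp the difference at 0.003% was 0.88 for Sgms2, 1.01 for Nsmaf, 0.58 for Pex11a and 0.99 for Gpat4. The median of all 26 was 0.36 at 0.003%, so these 10 are not the course of the whole group.

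Nuclear transport and sugar metabolism each gave several members, in groups formed the same way, against 3.05% of all genes measured. Of 23 measured nuclear pore proteins and transport receptors 5 were members, and the group's median was 1.09, 0.79 and 0.46. Nup54 and Nup62, which sit together in the central channel, were at 2.29, 1.98 and 1.28, and at 1.57, 1.31 and 0.52. Ndc1, which anchors the pore in the membrane, was at 1.61, 1.24 and 0.50. The importins Kpna6 and Kpnb1 were at 1.97, 1.01 and 0.59, and at 1.13, 0.58 and -0.12. With normexp the difference at 0.003% was 0.68 for Kpna6, 0.55 for Kpnb1, 0.95 for Ndc1 and 1.49 for Nup54. Of 14 measured enzymes of sugar nucleotides and glycosylation 6 were members, while the group's median was 0.08 at 0.003%. C1galt1, which makes the core 1 O-glycan, had levels of -0.20, 2.51, 1.68 and 0.67. Gfpt1, the rate-limiting enzyme of the hexosamine pathway, was at 1.46, 1.05 and 0.13, Ndst1, a heparan sulfate sulfotransferase, at 1.49, 0.59 and -0.08, and Pigm, of GPI anchor synthesis, at 1.26, 0.78 and -0.06. With normexp Ndst1 was at 0.80 and Pigm at 0.47 at 0.003%.

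Stress response lists gave 0 to 2 members each, against 3.05% of all genes measured. Of 32 measured NRF2 targets 2 (6.25%) were members, Akr1b8 and Gsta1, while 10 were at least 1 above the control at 0.003% and 5 at 0.009%. Txnrd1, another gene of that list, met both limits, at 3.29, 2.92 and 2.12 with a drop of -1.17. It was among the single genes left aside, so the count of NRF2 members depends on that choice. Outside that list, the aldose reductase gene Akr1b1 was at 1.59, 1.44 and 0.59. Of 28 genes of the integrated stress response and amino acid supply, 22 were at least 1 above the control at 0.003% and 16 at 0.009%, but Shmt2, the mitochondrial serine hydroxymethyltransferase, was the only member, with levels of 3.68, 5.26, 4.89 and 4.01. Tars1, a tRNA synthetase outside the list, was at 2.42, 2.19 and 1.42, and the synthetase complex scaffold Aimp2 at 1.19, 0.66 and 0.10. Of 18 measured genes of the endoplasmic reticulum 2 (11.1%) were members. Creld2, a secreted folding factor, had levels of 1.80, 4.14, 3.98 and 2.74, and Sel1l, an adaptor of ER-associated degradation, was at 1.37, 1.12 and -0.06. Of 15 measured p53 targets 2 (13.3%) were members, Tp53inp1 at 2.05, 1.25 and 0.38 and Phlda3, an inhibitor of Akt, at 1.42, 0.99 and 0.12. No heat shock gene of 18, no immediate early gene of 32 and no secreted growth factor of 30 was a member; at 3.05% of all genes, lists of this size can hold none, and nothing is read from these counts. The first 2 of these lists had medians of 1.17, 1.32 and 1.37, and of 1.28, 1.69 and 1.60, so neither came down with dose on this scale, although spike-in scaling, which takes off 0.17, 0.54 and 1.19, turns that course for both.

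Genes of the other 12 lists gave 2 members in all, Nbr1 of 32 genes of protein breakdown and Rnd1 of 26 of the cytoskeleton and adhesion. With the same limit on reading a count of 0, none was a member among 18 genes of NF-kB signalling, 25 of cholesterol and lipid synthesis, 22 of hypoxia and glycolysis, 28 of apoptosis, 21 of mitosis and replication and 18 of splicing and chromatin, nor among 8, 5, 2 and 3 measured markers of kidney epithelium, mesenchyme, endothelium and leukocytes. Members outside every list, named after they were seen, include surface and signalling proteins. Tgfbr2, a receptor for TGF-beta, had levels of -1.07, 0.51, -0.19 and -1.22. The receptor subunit Il6r was at 1.14, 0.81 and 0.11, the Wnt receptor Fzd3 at 1.26, 0.57 and -0.00, and the ephrin Efna1 at 1.10, 0.70 and -0.08. All 4 were close to the control at 0.009%. Map2k4, a kinase upstream of JNK, was at 1.26, 0.87 and 0.06, Crkl, an adaptor of tyrosine kinases, at 2.33, 1.98 and 0.99, and Dyrk1a, a kinase that restrains the cell cycle, at 1.84, 1.64 and 0.84. Lama3, a laminin chain of the basement membrane, was at 1.47, 0.47 and -0.00. With normexp the difference at 0.003% was 0.77 for Lama3, 1.38 for Crkl, 1.22 for Dyrk1a and 1.13 for Tgfbr2. It was 0.82 for Il6r, 0.95 for Fzd3, 0.81 for Efna1 and 0.98 for Map2k4, all short of the limit. Alas1, the first enzyme of haem synthesis, and Rab5if were among the brightest members, with levels of 4.89, 6.48, 5.97 and 5.37, and of 5.66, 7.16, 6.85 and 6.14. In Alas1 the 3.01-fold difference at 0.003% therefore rests on a strong signal. Wdr5, a core subunit of histone methyltransferases, was 5.72-fold and 2.12-fold above the control at 0.003% and 0.009%, and at -0.10 at the latter with spike-in scaling.

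Second probes gave a check on the same RNA with other oligonucleotides. Of the members, 26 had 29 further named probes seen on all arrays. Both limits were met by 13 of these 29, against 5.27% of second probes of all genes, 6 met the first limit only, 1 the second only and 9 neither. Rnd1 was at 3.67, 3.20 and 2.09 by its second probe and at 3.63, 3.20 and 2.24 by its first. Atp6v1b2, Cdc37l1 and Map2k4 also met both limits. Orc2, a subunit of the complex that marks replication origins, was 11.8-fold above the control at 0.003% by its brightest probe, with levels of -3.31, 0.26, -0.36 and -1.51, and with normexp its difference was 1.70. Its second probe was at 0.80, 1.07 and 0.58. The second probes of Prkcz, Fpgt, Gosr1, Ireb2 and Nbr1 were below the control at 0.003%, at -0.52, -0.62, -0.90, -0.53 and -0.22. Lgals8, Riox2 and Tspan5 each had a further probe at 0.40, 0.35 and 0.77, although another probe of Riox2 and of Tspan5 met both limits. For these 9 genes the value rests on which probe is read, and why was not tested. The size can rest on it where both limits were met too, as in Arih2, at 3.13 by its brightest probe and 1.67 by its second at 0.003%.

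**Figure D5:**
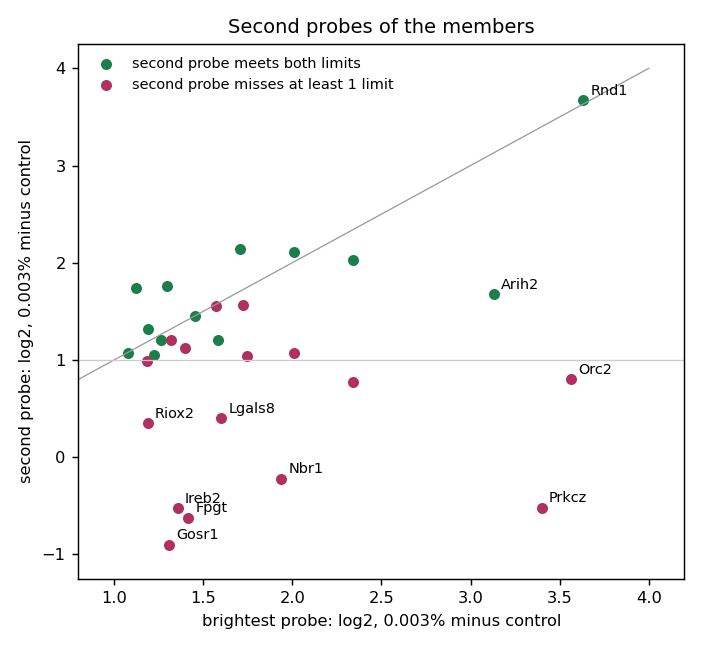
Log2 difference at 0.003% from the control of a member's second probe (vertical axis) against its brightest probe (horizontal axis) for the 29 second probes, with the diagonal of equal values. The 13 in green met both limits; Prkcz, Orc2, Nbr1, Fpgt, Gosr1 and Ireb2 lie far below the diagonal.

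The edges of the rule ran through a continuum. Just inside the first limit were Prkaa2 and Med4 at 1.00 and 1.01, and just outside it Pfn2, Rpusd4 and C2cd2 at 0.98, 0.97 and 0.94. Just inside the second limit were Gpr27, Dyrk1a, Tars1, Polr1a and Bysl, at the limit itself once rounded, with Akr1b1 and Pno1 at -1.01, and just outside it Birc2, with Nifk and Ftsj3 at -0.99. Nifk and Ftsj3 are nucleolar proteins too. Of the 152 members, 70 passed both limits by more than the spot error of the difference, whose median was 0.21.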

How the data were processed

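Total RNA of 4 cultures was labelled with Cy3 and read on 1-colour Agilent arrays. Per the file headers, the authors used Agilent Feature Extraction 10.7.3.1, which gave a linear intensity for each spot after background subtraction and detrending, with its error, and no scaling between arrays. The authors' deposited table gives each probe a ratio on a linear scale. For 100% of 41012 probes this was the spots' mean signal divided by the array median, to a relative tolerance of 0.0001, and it served as an alternative.

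From the intensities, outlier spots were left out, each probe's spots averaged as log2 values, and each array's 75th percentile (43379 noncontrol spots, in log2) taken off. This used 41007 probes. Names came from RefSeq accessions looked up in a table of GRCr8 genes (10835 probes). The array was annotated on rn4, so no gene positions are given other than those of the RefSeq promoters. A gene took its brightest probe seen on all arrays, by mean level. No spot was saturated, and 51.9 to 54.9% of probes were well above background. Akr1b8 and Gsta1 have close relatives whose transcripts a probe may share.

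No test was run, since each dose had 1 array. The limit of 1 (log2) is a rule of size, not a test. Members, 20 pathway lists and comparisons were chosen with earlier results of these data known, and 5 further lists after the members were seen. Named genes are those with the largest differences, at the edges of the limits, in the lists, or with disagreeing probes, with others named as seen later. Alternatives were array median, quantile and spike-in scaling (8 spike-in probes), normexp (offset 50, limma 3.58.1 in R 4.3.3, on the median signal, as the files used here hold no mean signal), the deposited ratio, outlier spots kept, all probes averaged, no filter, and limits of 0.5 and 1.5. A few genes that these rules would name are not reported here.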

Additional observations from a re-analysis of the deposited data

Results flagged for a closer look

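Probes without a RefSeq gene name lie outside the report, and 440 of 13116 of them seen on all 4 arrays (3.36%) met the same 2 limits, a signal above the control level that the genes named here do not cover. Their share is close to the 3.27% of named genes. Nothing further is said of them, since the sources used here give them no name.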

How the results depend on the processing

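No paired analysis was possible because each dose had 1 array. The number of members, 152, was 301 with array median scaling and with the authors' deposited table, 457 with spike-in scaling, 72 with normexp, 261 without the filter on dim probes, 23 with both limits at 1.5 and 673 at 0.5. Of the 152, 130, 128 and 54 were chosen again with array median scaling, spike-in scaling and normexp, and 48 under these and quantile normalization together. With quantile normalization (147), all probes averaged (156) or outlier spots kept (152) the number stayed within 1.5-fold. The 98 members lost with normexp had a median control signal of 57.5 units, against 263 in the 54 kept. Members at least 1 above the control at 0.006%, 88, numbered 49 with array median scaling and with the deposited table, 33 with spike-in scaling and 42 with normexp. At 0.009%, 23 became 5, 5, 2 and 6 in the same order. Ribosome biogenesis members, examined this way after the data were seen, went from 8 to 19, 19 and 28 with array median scaling, the deposited table and spike-in scaling, and to 4 with quantile normalization. Turned signs were listed only for named members and for differences of at least 1 in size. They were found at 0.009% with spike-in scaling for Arih2 (-0.0807), Agps (-0.0759), Wdr5 (-0.10) and Wdr12 (-0.0272). With normexp the drop of the dim gene Gpr27 turned (0.0512). Many more signs turn without these 2 conditions, as members below the control at 0.009% go from 33 to 137 with spike-in scaling. The cause was not tested. Signal over background limits the dim members, and 1 array per dose limits all values.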
